A study of Mus musculus with 10 samples.

Results

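Expression of 10 genes of bile acid handling was followed in primary mouse hepatocytes. The genes were taken by symbol, out of 18055 genes listed in at least 1 library, and comprised the uptake transporters Slc10a1, Slco1a1 and Slco1b2, the export transporters Abcb11, Abcc2, Abcc3 and Abcb4, the bile acid receptor FXR (Nr1h4), its target SHP (Nr0b2) and the conjugating enzyme Baat. All 10 were listed in every library, and all 10 were among the 14097 genes that passed the filter on low counts. The hepatocytes, the parenchymal cells of the liver, came from C57BL/6 wild-type mice by collagenase perfusion and were kept in culture. Their sex and age were not stated. The 5 groups held 2 libraries each. Vehicle cells received no free fatty acid (FFA) and no drug. PA cells received 200 µM palmitate, a saturated fatty acid, and LA cells 12 µM linoleate, a polyunsaturated fatty acid, each for 24 h. PA+NTP and LA+NTP cells were given Neurotropin (NTP) 1 h ahead of the same FFA. Neurotropin is an analgesic drug of animal origin. No group received NTP alone, and the 2 fatty acids were given at different concentrations, so that fatty acid and concentration cannot be told apart.

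Hepatocytes take bile acids up from blood across the sinusoidal membrane, join them to taurine or glycine, and pump them into the bile canaliculus, where phospholipid is added to protect the duct. Bile acids bind FXR inside the cell. FXR then induces SHP, a repressor of bile acid synthesis and uptake, together with the export pumps, which closes a feedback loop.

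The libraries held from 13142588 to 60046937 expected counts, a 4.57-fold range. FPKM (fragments per kilobase of transcript and per 1e+06 fragments) is used below for levels. Fold changes were fitted on the counts, and a gene is said to have risen or fallen where its Benjamini-Hochberg adjusted p from edgeR was under 0.05 and the fold change was at least 1.5. Hepatocyte markers were present in every library, with Alb at 1929 to 2818 FPKM. The cholangiocyte markers Krt7, Epcam and Cftr were at most 0.13, 0.20 and 0.01 FPKM, while Spp1 was at 398 to 691 FPKM. The Kupffer cell markers Clec4f, Vsig4 and Timd4 were at most 0.29, 0.30 and 0.20 FPKM, while Cd68 was at 122 to 287 FPKM. The libraries differed in 2 ways that touch the results. One is that PA+NTP replicate 2 was lower than replicate 1 for 10 of the 10 genes (median ratio of replicate 1 to replicate 2, 1.59), against 7 or 8 of 10 and ratios of 1.04 to 1.10 in the other groups. The other is GC content. Across 13977 genes, how far a gene lay from its mean over libraries (log2 CPM) correlated with the GC content of its transcripts at a Spearman rho of 0.413 and 0.378 in the Vehicle libraries, -0.463 and -0.466 in PA, 0.392 and 0.333 in PA+NTP, -0.550 and -0.554 in LA, and 0.555 and 0.524 in LA+NTP. The sign of this trend thus followed the treatment, and fold changes were therefore also fitted with the trend removed.

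The 10 genes differed widely in level (Vehicle mean FPKM ± SD, n = 2). Abcc2 and Abcc3 led at 91.4 ± 0.255 and 86.7 ± 2.17, above 94.3% and 93.9% of the tested genes. Abcb4 followed at 51.3 ± 1.73 and Nr1h4 at 19.0 ± 0.658, above 89.4% and 72.4% of the tested genes. Baat stood at 6.36 ± 0.106, below the median of the tested genes (7.58). The remaining 5 were low. Slc10a1 was at 2.18 ± 0.0707, Nr0b2 at 1.37 ± 0.0919, Slco1b2 at 1.10 ± 0.0141, Slco1a1 at 0.615 ± 0.290 and Abcb11 at 0.600 ± 0.0707. The Vehicle values of neighbours in this order did not overlap, except those of Slco1a1 and Abcb11. The bile salt export pump Abcb11 thus had the lowest Vehicle mean of the 10, although its values overlapped those of Slco1a1. The level of Abcc2 was 90.7 to 251 times that of Abcb11 in the 10 libraries. The summed FPKM of the 3 uptake transporters was 2.01 to 4.24 per library, against 165 to 189 for Abcc2 and Abcc3 together.

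**Figure D1:**
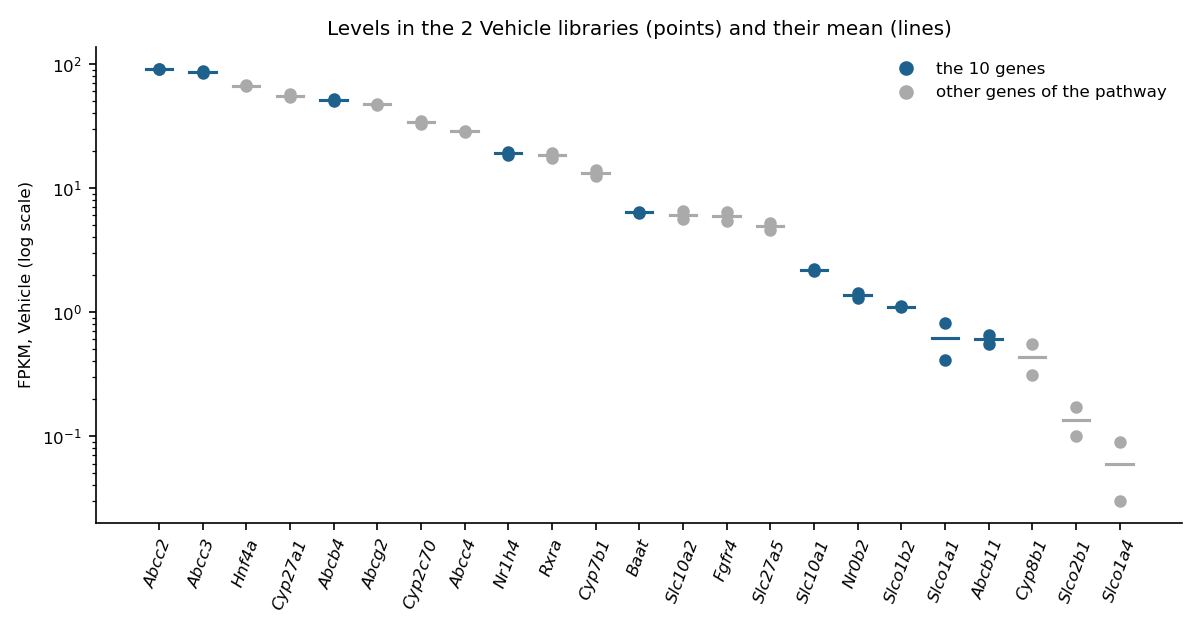
FPKM (log axis) in the 2 Vehicle libraries of the 10 genes (blue) and of 13 other genes of bile acid handling (grey), where points are libraries and lines are means. The means of Abcc2, Abcc3, Abcb4 and Nr1h4 ran from 91.4 down to 19.0 FPKM, whereas those of Slc10a1, Nr0b2, Slco1b2, Slco1a1 and Abcb11 ran from 2.18 down to 0.600 FPKM.

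Across groups, the largest group mean over the smallest was 4.59 for Nr0b2, 3.31 for Slco1b2 and 2.47 for Baat. It was 1.92 for Abcb4, 1.80 for Slco1a1, 1.77 for Slc10a1 and 1.65 for Nr1h4. Abcb11, Abcc2 and Abcc3 varied least, at 1.40, 1.37 and 1.19. The lowest mean was in PA+NTP for 6 genes (Abcb4, Nr1h4, Baat, Slco1b2, Slco1a1 and Abcb11), in PA for Abcc3, Slc10a1 and Nr0b2, and in LA+NTP for Abcc2. The highest mean was in LA for 5 genes (Abcb4, Nr1h4, Baat, Slco1b2 and Slco1a1), in LA+NTP for Abcc3, Nr0b2 and Abcb11, in PA for Abcc2 and in Vehicle for Slc10a1.

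**Figure D2:**
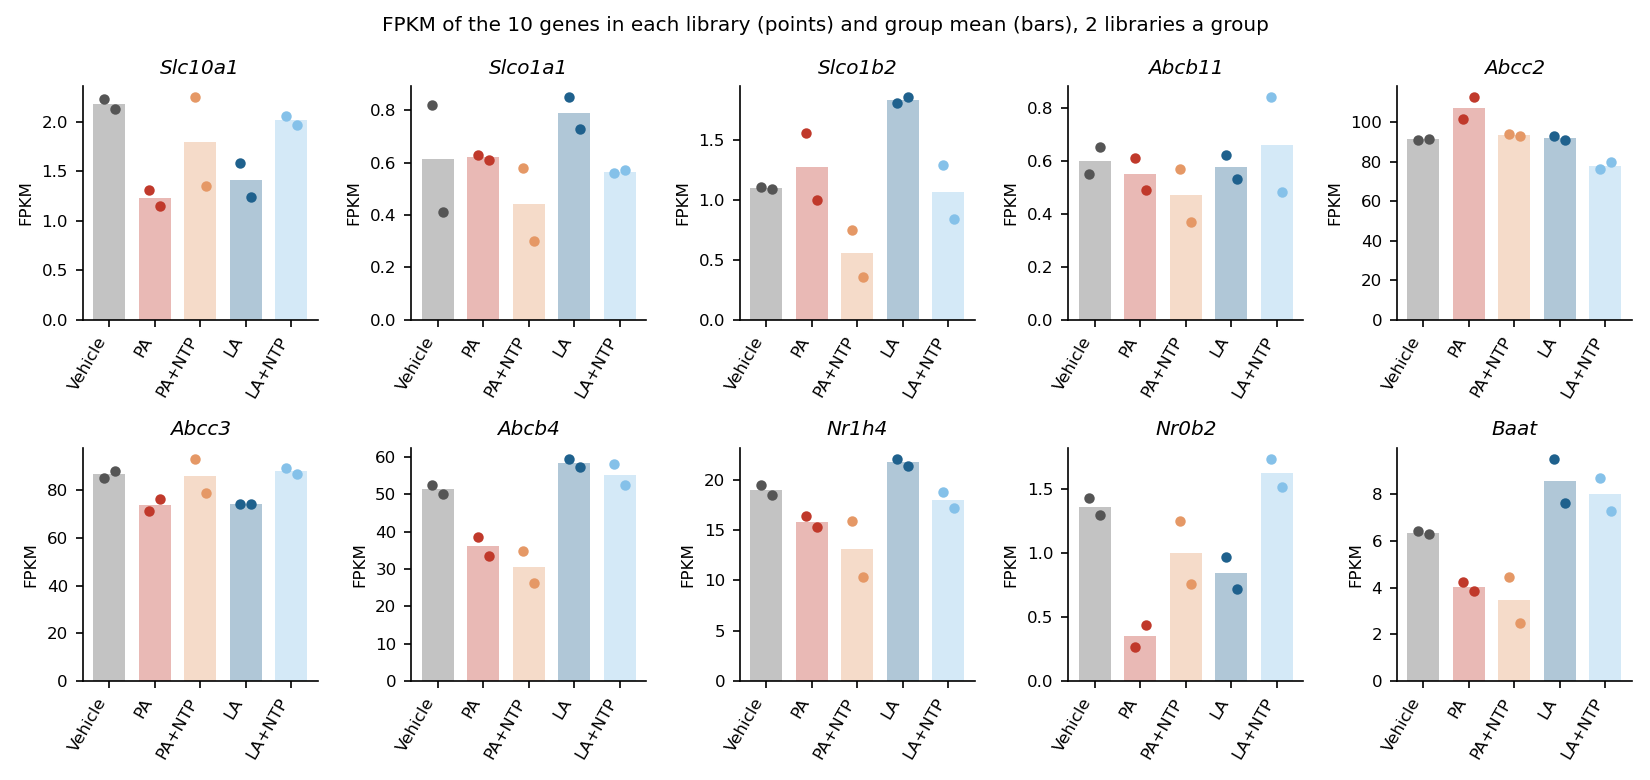
FPKM (linear axes from 0, one panel per gene) in each of the 10 libraries, with points for libraries and bars for the means of 2. Nr0b2 was lowest in both PA libraries, and both libraries of PA and of PA+NTP lay below both Vehicle libraries for Abcb4, Nr1h4 and Baat.

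At most 3 of the 10 genes changed in any comparison, and the genes that changed were not the same in all of them. With PA against Vehicle 3 fell (Slc10a1, Nr0b2 and Baat) and none rose, where 8.92% of the 14097 tested genes fell and 6.0% rose. With LA against Vehicle 1 rose (Slco1b2) and none fell, where 3.53% of the tested genes rose and 7.11% fell. NTP with PA, against PA, raised 1 gene (Nr0b2) and lowered 1 (Slco1b2), where 8.74% rose and 5.11% fell. NTP with LA, against LA, raised and lowered the same pair, where 11.7% rose and 7.57% fell. For PA+NTP against Vehicle 2 fell (Abcb4 and Baat) and none rose, where 1.64% fell and 1.21% rose. For LA+NTP against Vehicle none of the 10 changed by edgeR, where 0.0567% of tested genes rose and 0.0355% fell, and 1 of them (Abcc2) had an unadjusted p under 0.05; DESeq2 called none either. The NTP effect under PA did not differ from that under LA for any of the 10 by edgeR or DESeq2, none had an unadjusted p under 0.05, and 0.0% of the tested genes differed in either direction. The comparisons share groups, so that their counts are not independent of each other. The median log2 fold change of the 10 was -0.22 with PA, 0.14 with LA, -0.26 for PA+NTP against PA and -0.14 for LA+NTP against LA, beside medians of -0.01, -0.01, 0.01 and 0.01 over all tested genes. Against Vehicle it was -0.48 for PA+NTP and -0.01 for LA+NTP, beside 0.01 and 0.00. A lower level in these bulk samples can mean fewer cells that express a gene or less RNA per cell, which cannot be told apart.

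**Figure D3:**
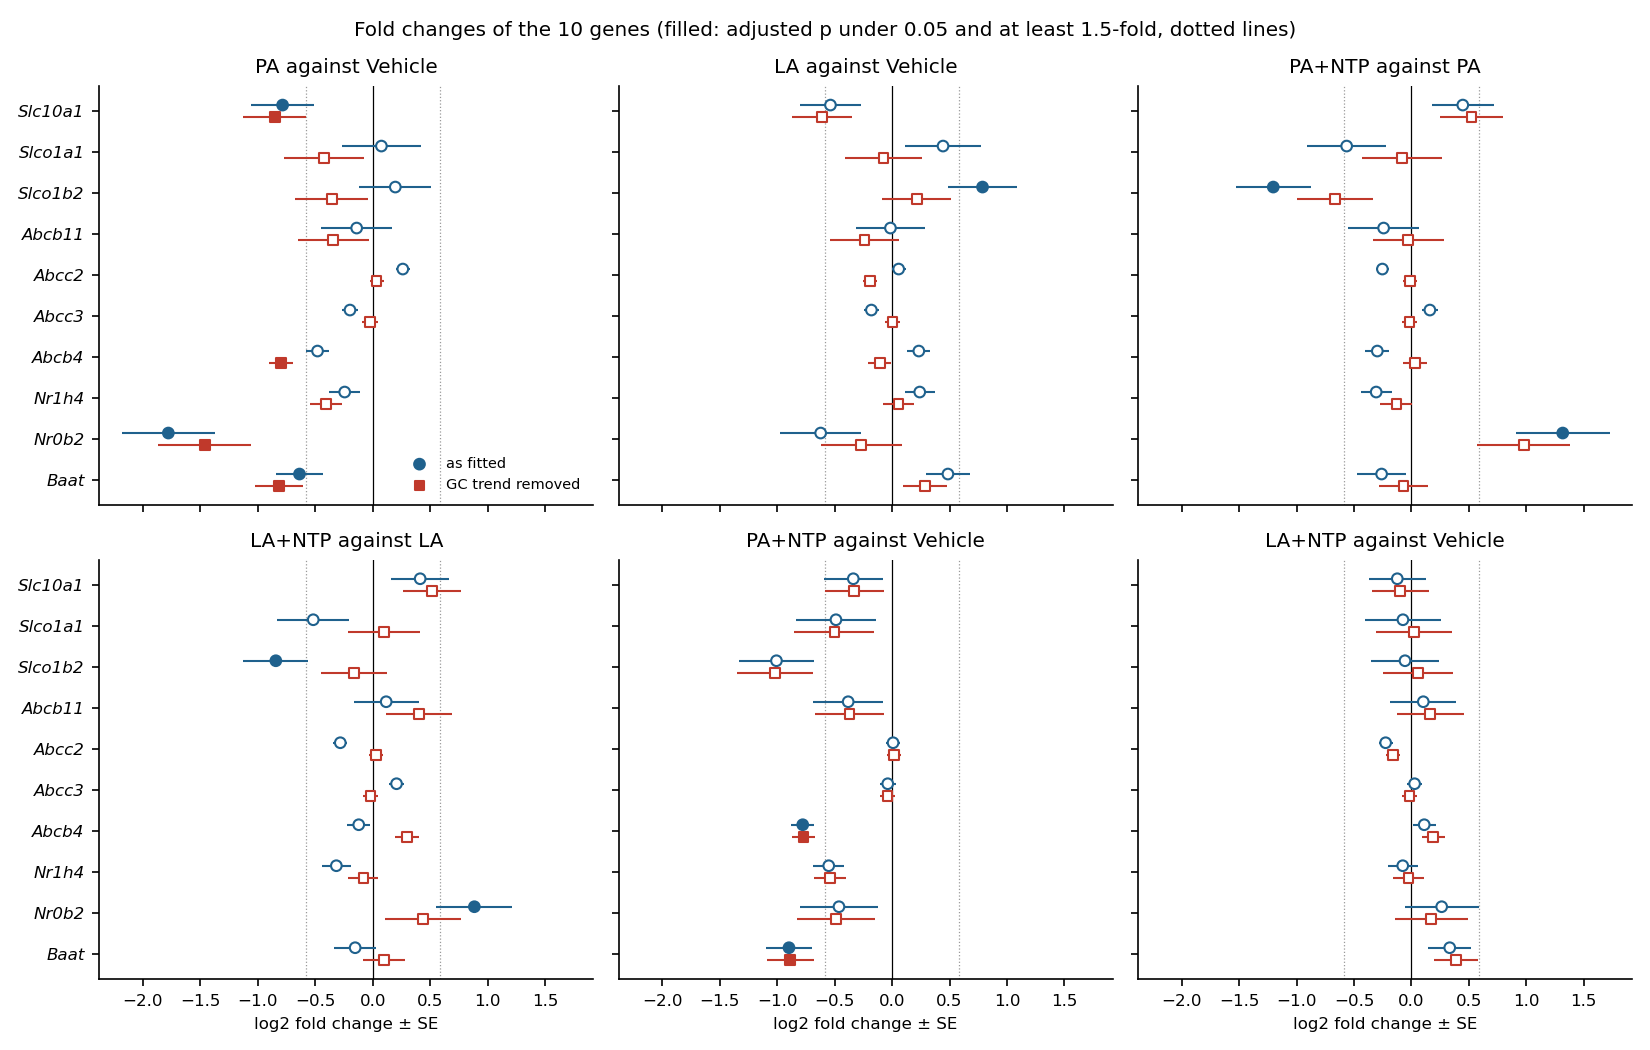
Log2 fold changes ± SE of the 10 genes in 6 comparisons, as fitted (blue circles) and with the GC trend removed (red squares). Filled symbols passed the adjusted p and the 1.5-fold threshold (dotted lines). Both fits have Nr0b2, Slc10a1 and Baat lower in PA and Abcb4 and Baat lower in PA+NTP than in Vehicle, while the calls of Slco1b2 and of Nr0b2 under NTP are filled in blue only.

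Gene positions are given in GRCm38. Slc10a1 (gene ID 20493, chr12:80953185-80968705, minus strand) encodes NTCP, the sodium-dependent carrier for conjugated bile acids. Its FPKM was 2.23 and 2.13 in Vehicle, 1.31 and 1.15 in PA, 2.25 and 1.35 in PA+NTP, 1.58 and 1.24 in LA, and 2.06 and 1.97 in LA+NTP. Both libraries of each FFA lay below both Vehicle libraries, and the LA+NTP libraries lay between. Slc10a1 fell with PA (log2 fold change -0.78 ± 0.27 SE, adjusted p = 0.0304; -0.85 with the GC trend removed). With LA it was at -0.54 ± 0.26 (adjusted p = 0.118; -0.61 with the trend removed). NTP gave 0.45 ± 0.27 with PA (adjusted p = 0.205) and 0.41 ± 0.25 with LA (adjusted p = 0.187), neither past the threshold. The fall with PA rested on 156 expected counts in Vehicle and 100 in PA, and leaving out either Vehicle library or either PA library ended the call (log2 fold changes of -0.87 to -0.65).

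Slco1a1 (gene ID 28248, chr6:141907281-141946962, minus strand) and Slco1b2 (gene ID 28253, chr6:141629452-141686646, plus strand) encode organic anion carriers that take up bile acids without sodium. Slco1a1 stayed below 1 FPKM throughout, at 0.82 and 0.41 in Vehicle, 0.63 and 0.61 in PA, 0.58 and 0.30 in PA+NTP, 0.85 and 0.73 in LA, and 0.56 and 0.57 in LA+NTP. The Vehicle libraries spanned nearly the whole range of the other groups, and no comparison passed the test (adjusted p from 0.184 to 0.948 in the comparisons with Vehicle or with the matching FFA). Of the sequence of Slco1a1, 4.0% in stretches of 31 bases also occurs in transcripts of its neighbours in the family, Slco1a4 first, so that reads could have been split between them. Slco1b2 was at 1.11 and 1.09 FPKM in Vehicle, 1.56 and 1.00 in PA, 0.75 and 0.36 in PA+NTP, 1.81 and 1.86 in LA, and 1.29 and 0.84 in LA+NTP. Both LA libraries exceeded all others, and both PA+NTP libraries were below all others. Slco1b2 rose with LA (0.79 ± 0.30, adjusted p = 0.0471) and fell with NTP under PA (-1.20 ± 0.32, adjusted p = 0.00766) and under LA (-0.84 ± 0.28, adjusted p = 0.0222). It has the lowest transcript GC content of the 10 (36.5%), and these 3 calls were lost with the GC trend removed (0.22, -0.67 and -0.16). For PA+NTP against Vehicle its log2 fold change was -1.01 ± 0.33 (adjusted p = 0.0664) and -1.02 without the trend. The rise with LA was lost without any 1 of the 4 libraries compared, although its size stayed at 0.77 to 0.81, the fall under PA without PA replicate 1 or PA+NTP replicate 2 (-1.80 to -0.78), and the fall under LA without LA replicate 1, LA replicate 2 or LA+NTP replicate 2 (-1.17 to -0.55).

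Abcb11 (gene ID 27413, chr2:69238282-69342616, minus strand) encodes BSEP, the canalicular pump for monovalent bile salts and a textbook target of FXR. It was at 0.55 and 0.65 FPKM in Vehicle, 0.61 and 0.49 in PA, 0.57 and 0.37 in PA+NTP, 0.62 and 0.53 in LA, and 0.84 and 0.48 in LA+NTP. The groups overlapped, and the log2 fold changes in the comparisons with Vehicle or with the matching FFA ranged from -0.38 ± 0.30 to 0.12 ± 0.28. From 134 to 291 expected counts lay behind a group, and no difference was detectable at this depth. Exons of Abcb11 are overlapped on the other strand by Gm13613 and Gm13614, and whether counting used strand was not stated.

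The bases before the start sites of Abcb11, Slco1b2 and Nr0b2 are shown. Of these genes 2 hold a copy, with 1 mismatch, of the inverted repeat that FXR binds with its partner RXR. The other is an FXR target that fell with PA. Binding was not tested. The sequences are from the RefSeq promoter table of GRCm38.p6 and end before the RefSeq start of each gene, at chr2:69342617-69342866 (minus strand), chr6:141629268-141629451 (plus strand) and chr4:133553126-133553375 (plus strand). The start site used for the Slco1b2 window lies inside the RefSeq bounds of the gene, so that only the 184 bases before those bounds are shown. Capitals mark the copy with 1 mismatch in Abcb11 and Slco1b2, and TATAAA in Nr0b2.
Abcb11: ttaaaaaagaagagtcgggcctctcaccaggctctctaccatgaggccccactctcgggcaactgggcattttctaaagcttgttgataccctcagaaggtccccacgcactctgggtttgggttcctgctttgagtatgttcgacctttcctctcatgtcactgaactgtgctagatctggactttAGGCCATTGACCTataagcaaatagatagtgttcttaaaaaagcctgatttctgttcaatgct
Slco1b2: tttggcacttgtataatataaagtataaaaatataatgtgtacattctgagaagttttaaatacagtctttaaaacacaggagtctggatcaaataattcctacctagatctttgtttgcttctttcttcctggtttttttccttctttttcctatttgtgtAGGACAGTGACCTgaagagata
Nr0b2: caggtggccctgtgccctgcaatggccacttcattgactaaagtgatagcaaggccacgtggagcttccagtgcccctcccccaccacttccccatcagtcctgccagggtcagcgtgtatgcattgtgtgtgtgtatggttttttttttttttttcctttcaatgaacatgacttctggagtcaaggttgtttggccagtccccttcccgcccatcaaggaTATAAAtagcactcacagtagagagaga

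The table held windows of 8 of the 10 genes, each with 250 bases before a start site and 50 after it. The repeat searched was AGGTCA, 1 base of any kind and TGACCT, on both strands. With 1 mismatch allowed it was found for Abcb11 (chr2:69342667-69342679) and Slco1b2 (chr6:141629430-141629442), and in 0.0822% of all 32851 windows. With 2 mismatches allowed these 2 genes remained, at 1.14% of windows, and no exact copy was present in the 8. The end of the repeat is itself AGGTCA on the other strand, and AGGTCA on either strand was in the windows of 6 of the 8 genes, all but Abcb4 and Nr0b2, and in 16.3% of windows. The direct repeat bound by HNF4A (AGGTCA, 1 base of any kind and AGGTCA, up to 2 mismatches) was in Slco1a1 and Nr1h4 and in 3.86% of windows. TATAAA on either strand was in Nr0b2, Slc10a1, Slco1a1 and Slco1b2 and in 13.6% of windows, in Nr0b2 at positions -28 to -23 from the start.

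Abcc2 (gene ID 12780, chr19:43782308-43838332, plus strand) encodes MRP2, the canalicular pump for conjugated bilirubin and divalent bile acid conjugates. It was at 91.2 and 91.5 FPKM in Vehicle, 101 and 113 in PA, 94.2 and 92.8 in PA+NTP, 93.2 and 91.0 in LA, and 76.2 and 79.6 in LA+NTP. Both PA libraries were highest and both LA+NTP libraries lowest. The differences were small but exceeded the spread between libraries, with PA above Vehicle (0.26 ± 0.06, adjusted p = 0.00264), PA+NTP below PA (-0.25 ± 0.06, adjusted p = 0.00331) and LA+NTP below LA (-0.28 ± 0.06, adjusted p = 0.00120), all under 1.5-fold. With the GC trend removed they came to 0.03, -0.01 and 0.03. Abcc3 (gene ID 76408, chr11:94343295-94393017, minus strand) encodes MRP3, which exports conjugates back to blood. It was at 85.2 and 88.2 FPKM in Vehicle, 71.5 and 76.2 in PA, 93.3 and 78.7 in PA+NTP, 74.1 and 74.2 in LA, and 89.4 and 86.7 in LA+NTP. Both FFA groups lay below Vehicle (-0.20 ± 0.07, adjusted p = 0.0293, with PA; -0.18 ± 0.07, adjusted p = 0.0481, with LA), by less than 1.5-fold, and the differences were -0.02 and 0.00 without the GC trend. Abcc2 thus exceeded Abcc3 by 1.42 and 1.48 times in the PA libraries, by 1.26 and 1.23 in LA, by 1.07 and 1.04 in Vehicle, by 1.01 and 1.18 in PA+NTP, and was below it in LA+NTP (0.853 and 0.918).

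Abcb4 (gene ID 18670, chr5:8893614-8959226, plus strand) encodes MDR2, the flippase that delivers phosphatidylcholine to bile. It was at 52.5 and 50.1 FPKM in Vehicle, 38.5 and 33.6 in PA, 34.8 and 26.1 in PA+NTP, 59.5 and 57.2 in LA, and 58.0 and 52.4 in LA+NTP. All 4 libraries with palmitate lay below all 6 others. Abcb4 fell in PA+NTP against Vehicle (-0.78 ± 0.10, adjusted p = 0.000286), a call that remained in 21 of 21 alternative fits. With PA it was lower by less than 1.5-fold (-0.48 ± 0.10, adjusted p = 0.00162), and with the GC trend removed the difference was -0.80 and passed the fold threshold. With LA it was at 0.23 ± 0.10 (adjusted p = 0.0811), and at -0.11 without the trend. NTP gave -0.30 ± 0.10 with PA (adjusted p = 0.0299) and -0.12 ± 0.10 with LA (adjusted p = 0.333), neither past the fold threshold. With the trend removed these values were 0.03 (adjusted p = 0.876) and 0.30 (adjusted p = 0.0391). Of the sequence of Abcb4, 4.74% in stretches of 31 bases is shared with other genes, Abcb1a first.

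Nr1h4 (gene ID 20186, chr10:89454234-89533645, minus strand) was at 19.5 and 18.5 FPKM in Vehicle, 16.4 and 15.3 in PA, 15.9 and 10.4 in PA+NTP, 22.1 and 21.4 in LA, and 18.8 and 17.2 in LA+NTP. Both LA libraries were above and all 4 libraries with palmitate below those of Vehicle. In PA+NTP the difference from Vehicle had an adjusted p of 0.0175 with a log2 fold change of -0.55 ± 0.13, short of 1.5-fold. Without PA+NTP replicate 1 it was called at -0.86, and without PA+NTP replicate 2 it was -0.30. With PA and LA alone the values were -0.24 ± 0.14 (adjusted p = 0.161) and 0.24 ± 0.13 (adjusted p = 0.161). With the GC trend removed they were -0.41 (adjusted p = 0.0370) and 0.06 (adjusted p = 0.823). PA+NTP against Vehicle was at -0.54 in that fit (adjusted p = 0.0222). The receptor thus changed by less than 1.5-fold in every two-group comparison made over all libraries.

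Nr0b2 (gene ID 23957, chr4:133553376-133556686, plus strand) was measured on few reads. Its expected counts were 30 and 39 in Vehicle, 4 and 19 in PA, 43 and 27 in PA+NTP, 35 and 19 in LA, and 70 and 102 in LA+NTP. Its FPKM was 1.43 and 1.30 in Vehicle, 0.27 and 0.44 in PA, 1.25 and 0.76 in PA+NTP, 0.97 and 0.72 in LA, and 1.74 and 1.52 in LA+NTP. Both PA libraries were below all others and both LA+NTP libraries above all others. Nr0b2 fell with PA (-1.78 ± 0.41, adjusted p = 0.00255), the largest fold change of the 10 genes in that comparison, and the call remained in 21 of 21 alternative fits, at -1.46 without the GC trend. With LA the value was -0.62 ± 0.35 (adjusted p = 0.180). Under NTP it rose with PA (1.32 ± 0.41, adjusted p = 0.0168) and with LA (0.88 ± 0.33, adjusted p = 0.0366). Nr0b2 has the highest GC content of the 10 (57.8%), and both rises were lost with the trend removed (0.98 and 0.44; adjusted p = 0.0893 and 0.351, within ranges of 0.00373 to 0.145 and 0.00799 to 0.351 over the 21 alternatives). The rise under PA was lost without PA replicate 1, PA replicate 2 or PA+NTP replicate 1 (0.94 to 1.80), and that under LA without any 1 of its 4 libraries (0.69 to 1.13). NTP with either FFA left Nr0b2 without a call against Vehicle (-0.46 ± 0.34 with PA, 0.26 ± 0.32 with LA). The FPKM of Nr0b2 as a share of that of Nr1h4 was 0.0165 and 0.0287 in the PA libraries, and 0.0336 to 0.0927 in the 8 others.

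Baat (gene ID 12012, chr4:49489416-49507915, minus strand) encodes the transferase that conjugates bile acids. It was at 6.43 and 6.28 FPKM in Vehicle, 4.23 and 3.84 in PA, 4.46 and 2.49 in PA+NTP, 9.52 and 7.64 in LA, and 8.69 and 7.30 in LA+NTP. The order of the groups had no overlap between palmitate, Vehicle and linoleate libraries. Baat fell with PA (-0.64 ± 0.21, adjusted p = 0.0210) and was lower in PA+NTP than in Vehicle (-0.90 ± 0.20, adjusted p = 0.0117), with values of -0.82 and -0.89 without the GC trend. With LA it was at 0.49 ± 0.19 (adjusted p = 0.0544). The fall with PA was lost without either Vehicle library or PA replicate 2 (-0.70 to -0.55), and that in PA+NTP without either Vehicle library or PA+NTP replicate 2 (-1.35 to -0.56). NTP had no call on Baat with PA (-0.26 ± 0.21) or with LA (-0.15 ± 0.18).

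Abcb4, Nr1h4 and Baat had negative fold changes with PA and positive ones with LA, of which that of Abcb4 with LA turned to -0.11 with the GC trend removed. In that fit Nr1h4 was at -0.41 with PA and at 0.06 with LA (adjusted p = 0.0370 and 0.823). Both fatty acids were also set directly against each other, a comparison added after the values were seen. PA was below LA for Abcb4 (-0.71 ± 0.10, adjusted p = 0.000561) and for Baat (-1.12 ± 0.20, adjusted p = 0.00261), where 2.04% of the tested genes were lower and 1.18% higher. PA+NTP was below LA+NTP for the same 2 genes (-0.89 ± 0.10, adjusted p = 6.59e-05, and -1.23 ± 0.19, adjusted p = 0.000714), where 2.45% were lower and 1.38% higher. These 4 calls remained with the GC trend removed, at -0.69, -1.10, -0.96 and -1.27 (where 2.01% and 2.26% of the tested genes were lower and 1.14% and 1.3% higher), and Slco1b2 was then also lower in PA+NTP than in LA+NTP. Without PA replicate 2, the call of Baat between PA and LA was lost. Nr1h4 had log2 fold changes of -0.48 ± 0.13 in both (adjusted p = 0.0327 and 0.0245), short of 1.5-fold. Nr0b2 was at -1.16 ± 0.42 between PA and LA (adjusted p = 0.0965) and at -0.73 ± 0.32 between PA+NTP and LA+NTP (adjusted p = 0.152). Markers of hepatocytes and of other cells also differed. The summed FPKM of 8 hepatocyte markers was 3903 to 4133 in Vehicle, 2559 to 2862 in PA, 3171 to 3600 in PA+NTP, 3829 to 3955 in LA and 4651 to 4987 in LA+NTP, and 4 of the 8 fell with PA and none rose or fell with LA against Vehicle. In PA against LA 3 of the 8 were lower, and in PA+NTP against LA+NTP 6 of the 8. Of other lists, 3 of 6 tested cholangiocyte markers (summed FPKM 599.8 to 634.1 in Vehicle and 416.6 to 538.7 in PA) and 4 of 8 stellate cell markers (30.97 to 31.66 and 25.13 to 25.61) also fell with PA. Of all tested genes 8.92% fell and 6.0% rose with PA. Most of the cholangiocyte sum was Spp1, at 572 to 603 FPKM in Vehicle and 398 to 521 in PA. Of 6 tested Kupffer cell and macrophage markers (208.0 to 208.1 and 201.9 to 237.8), 1 rose with PA (Marco, 2.46) and 1 fell, and 2 were higher and 1 lower in PA than in LA. The 1 lymphocyte marker tested, Ptprc, rose with PA (0.69, a call lost with the trend removed), and none of 7 sinusoidal endothelial markers and 1 erythroid marker changed with PA by edgeR. Their part in the result was not tested.

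**Figure D4:**
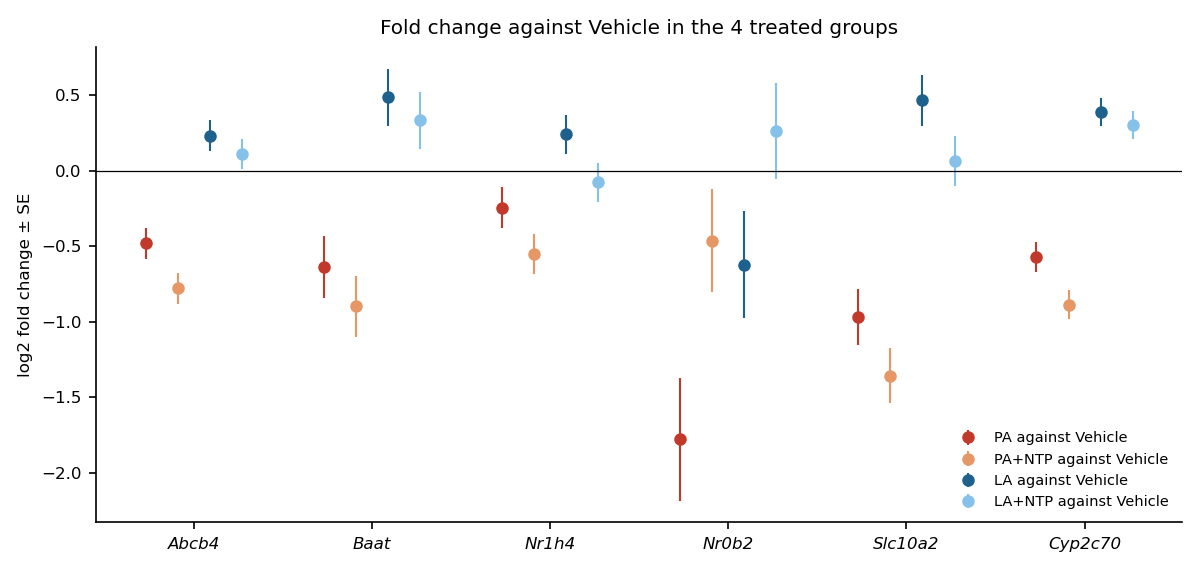
Log2 fold change ± SE against Vehicle in the 4 treated groups for 4 of the 10 genes and for Slc10a2 and Cyp2c70. Abcb4, Baat, Slc10a2 and Cyp2c70 lie below 0 in both palmitate groups (red, orange) and above 0 in both linoleate groups (dark, light blue). Nr1h4 and Nr0b2 also lie below 0 in both palmitate groups. In LA and LA+NTP they were at 0.24 and -0.08 (Nr1h4) and at -0.62 and 0.26 (Nr0b2). With the GC trend removed, which is not plotted, LA against Vehicle came to -0.11 for Abcb4, -0.14 for Slc10a2 and -0.0055 for Cyp2c70. It stayed above 0 for Baat (0.29).

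Other genes of the pathway were taken from 4 lists. Of 17 tested genes of bile acid synthesis and conjugation, 2 fell and none rose with PA (8.92% and 6.0% of all tested genes). The 2 were Akr1c6, a steroid dehydrogenase (-1.40 ± 0.51, adjusted p = 0.0360), and Slc27a5, the ligase that activates bile acids for Baat (-0.63 ± 0.15, adjusted p = 0.00353). With the GC trend removed Akr1c6 remained called (-1.73), the call of Slc27a5 was lost (-0.52) and Cyp2c70 was called (-0.94). With LA the peroxisomal thiolase Scp2 rose (0.64 ± 0.09), and it fell with NTP under PA (-0.69 ± 0.09) and LA (-0.66 ± 0.09), and these 3 calls were lost with the GC trend removed. In PA+NTP against Vehicle 4 fell, all 4 also with the trend removed, among them Cyp2c70, which makes muricholic acids in mice (-0.89 ± 0.10, adjusted p = 8.3e-05). Of all tested genes 1.64% fell in that comparison, and 1.6% with the trend removed. The median of the list in that comparison was -0.34, beside 0.01 for all tested genes. Cyp7a1, the rate-limiting enzyme of the classic route, was at most 0.02 FPKM in every library and Cyp8b1, the sterol 12-alpha-hydroxylase, at 0.14 to 0.55 FPKM. Cyp27a1, which opens the alternative route, was at 41.9 to 56.9 FPKM.

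Among 15 other transporters tested, 3 rose and 4 fell with PA (6.0% and 8.92% of all tested genes). The apical bile acid carrier Slc10a2 fell (-0.97 ± 0.19, adjusted p = 0.000728), as did the sterol exporters Abcg5 (-0.92 ± 0.35) and Abcg8 (-0.90 ± 0.20) and the efflux pump Abcc6 (-0.92 ± 0.20), while the drug efflux pump Abcb1b rose (0.78 ± 0.08, adjusted p = 5.06e-06). With the GC trend removed 1 rose and 3 fell (3.22% and 5.58% of all tested genes). In that fit the calls of Abcg5 (-0.84, adjusted p = 0.0788), Abcb1b (0.57) and Tmem30a (0.31) were lost. Those of Slc10a2 (-1.56), Abcg8 (-0.75), Abcc6 (-0.70) and Abcc1 (0.67) remained. Slc10a2 also serves as a cholangiocyte marker, and its FPKM exceeded that of Slc10a1 in 10 of 10 libraries, by 1.28 to 5.94 times. In PA+NTP against Vehicle Slc10a2 (-1.36 ± 0.18) and Abcg8 (-0.75 ± 0.19) fell and Abcb1b (0.61 ± 0.08) and the glutathione conjugate pump Abcc1 (0.90 ± 0.08) rose, and these 4 calls remained with the trend removed. NTP lowered Atp8b1 and Tmem30a, the subunits of a canalicular phospholipid flippase, with log2 fold changes of -0.68 ± 0.10 and -0.71 ± 0.06 under PA and -0.62 ± 0.10 and -0.63 ± 0.06 under LA; Tmem30a had risen with PA (0.61 ± 0.06) and with LA (0.60 ± 0.06). Of these 6 calls, that of Atp8b1 under PA remained with the GC trend removed (-0.62). Slc51b, a basolateral bile acid exporter, was not listed in 9 of 10 libraries and was taken as 0 there.

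Of 16 tested nuclear receptors and feedback partners of FXR, 4 fell and none rose with PA (8.92% and 6.0% of all tested genes). The 4 included Hnf4a (-0.73 ± 0.06), Nr1h2 (-0.67 ± 0.07) and the FGF receptor Fgfr4 (-0.67 ± 0.15). Nr1h2 also fell with LA (-0.74 ± 0.07), and it rose with NTP under PA (0.75 ± 0.07) and LA (0.99 ± 0.07). These 3 genes have transcript GC contents of 56.0% to 60.8%, and with the trend removed none of these calls remained, although Hnf4a with PA was still at -0.49 (adjusted p = 6.1e-05), short of 1.5-fold. In that fit 1 gene of the list rose with PA and none fell (3.22% and 5.58% of all tested genes). The gene that rose was the transcription factor Cebpb (1.30), which was at 0.58 ± 0.13 as first fitted. Rxra, the partner of FXR, was at 14.6 to 20.4 FPKM and had no call. Among 17 tested targets of FXR other than the 10 genes, 4 fell and none rose with PA (8.92% and 6.0% of all tested genes). With NTP 4 rose and none fell under PA (8.74% and 5.11% of all tested genes) and under LA (11.7% and 7.57%). With the trend removed 3 fell with PA (5.58% of all tested genes), and 3 rose with NTP under PA (4.36%) and LA (4.26%). Apoc2, the activator of lipoprotein lipase, fell with PA (-1.59 ± 0.23) and LA (-1.40 ± 0.22) and rose with NTP under PA (1.28 ± 0.23) and LA (1.64 ± 0.22), and these 4 calls remained with the trend removed (-1.38, -1.17, 1.06 and 1.35). Apoc3 (0.96 ± 0.15 and 1.11 ± 0.14) and Pltp (1.08 ± 0.20 and 1.40 ± 0.19) also rose with NTP under PA and LA and remained called without the trend. Fgfr4 and Nr5a2 are in both lists. The list of targets was not split by whether FXR raises or lowers a gene, so that its counts do not measure FXR activity.

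In both linoleate comparisons, the genes of lowest and highest GC content among the 10 lay apart. In LA against Vehicle, the 2 genes under 40% GC (Slco1b2 and Slco1a1) were at 0.79 and 0.44, and the 2 genes over 50% (Abcc3 at 54.6% and Nr0b2 at 57.8%) at -0.18 and -0.62. For LA+NTP against LA the same genes were at -0.84, -0.52, 0.21 and 0.88. Genes between them did not follow that order, with Abcb11 (45.8% GC) at -0.01, Baat (46.4%) at 0.49 and Slc10a1 (49.2%) at -0.54 in LA against Vehicle. In PA+NTP against Vehicle, where both groups had a GC trend of the same sign, Slco1b2 was at -1.01 and Nr0b2 at -0.46. With the trend removed, the values of the same 4 genes were 0.22, -0.07, 0.00 and -0.27 for LA, and -0.16, 0.10, -0.02 and 0.44 for LA+NTP. Of the 10 genes, 4 were lower with PA in that fit (Slc10a1, Abcb4, Nr0b2 and Baat), where 5.58% of the tested genes were lower and 3.22% higher, and 2 in PA+NTP against Vehicle, where 1.6% were lower and 1.21% higher. By edgeR in that fit none of the 10 were called with LA (1.05% of tested genes higher, 2.5% lower), with NTP under PA (4.36% and 2.09%), with NTP under LA (4.26% and 1.94%) or in LA+NTP against Vehicle (0.0284% and 0.0213%). Whether the trend arose in the libraries or in the cells was not tested.

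**Figure D5:**
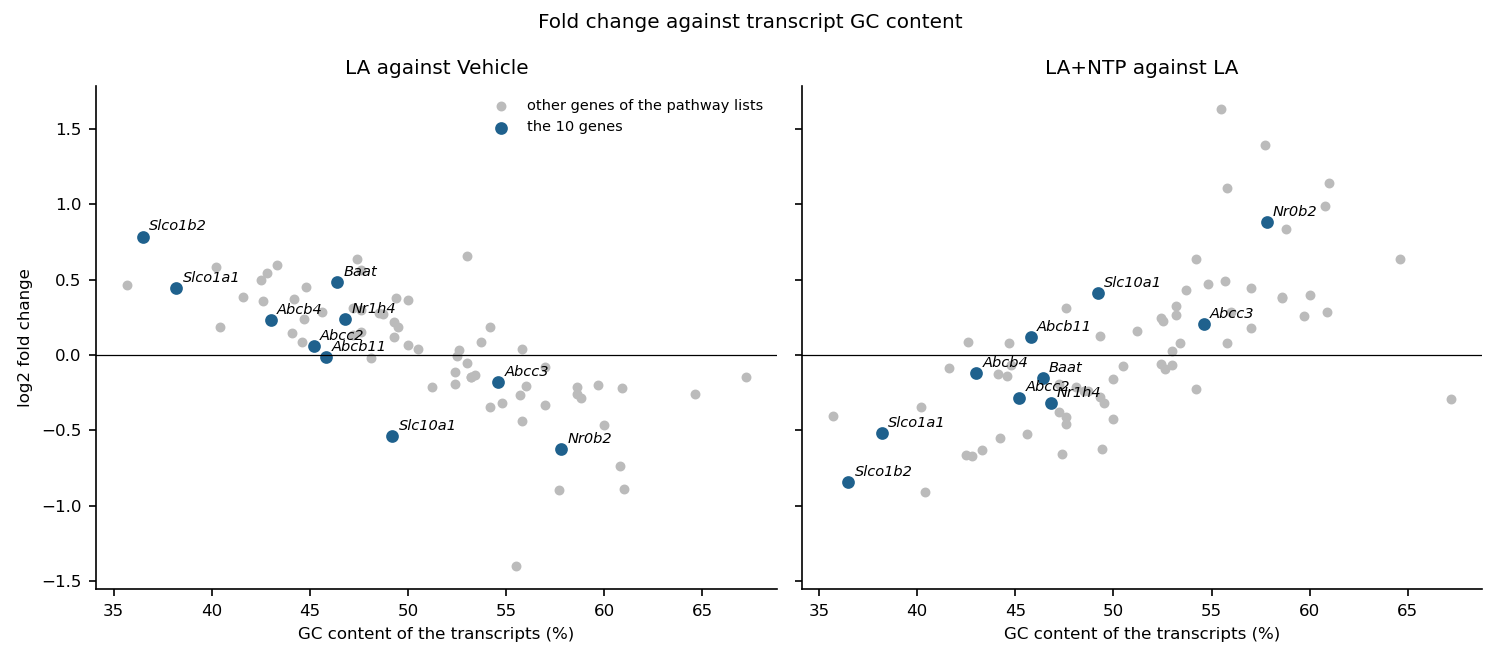
Log2 fold change against the GC content of the transcripts (%) for the 10 genes (blue, named) and the other genes of the pathway lists (grey), for LA against Vehicle (left) and LA+NTP against LA (right). Slco1b2 (36.5% GC) and Nr0b2 (57.8% GC) sit at opposite ends, at 0.79 and -0.62 on the left and at -0.84 and 0.88 on the right.

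The genes most like the called ones over the 10 libraries were sought among 11108 others with a mean FPKM of at least 1. Pearson's r of log2 CPM, a description over libraries that share groups and the GC trend, was highest with Acad11 (0.995) and Slc10a2 (0.992) for Abcb4, and with Bdh1 (0.984) and Stradb (0.980) for Baat. It was highest with Adam11 (0.986) for Nr0b2, with Aamdc (0.977) and Elovl2 (0.975) for Slco1b2, and with Gba2 (0.946) and Plxna2 (0.944) for Slc10a1.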

How the data were processed

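RNA from mouse primary hepatocytes in 5 groups of 2 libraries was sequenced. Labels gave each library's group and number but not whether replicates came from separate cultures or animals, so that p-values measure only the spread between these libraries. The number in the name of the deposited file differed from the label's for 8 of 10 libraries; replicate numbers here are the labels'.

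The authors deposited, per library, RSEM's expected count of each gene, without normalization between libraries (71.7% to 76.7% whole numbers, tolerance 1e-06), and its FPKM, scaled by the authors for length and library size. HISAT, Bowtie2, RSEM and the build mm10 are named in the submitters' processing notes, without versions. A gene missing from a library's table was taken as 0 there, since tables start at an FPKM of 0.01, and 15211 to 16318 genes were listed per library. Of 18055 NCBI gene IDs, 17998 matched the RefSeq table of GRCm38.p6 by ID and 11 by accession. GC content came from GENCODE M21 transcripts (98.8% of genes).

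Expected counts were rounded and fitted with edgeR 4.0.16 in R 4.3.3 (TMM factors 0.977 to 1.037, filterByExpr, quasi-likelihood F test, 5 groups as one factor, 5 residual degrees of freedom), with adjustment over the 14097 genes tested. The GC trend was removed as a loess offset per library (span 0.4), and the 14097 genes included some without a GC value, whose offset was left as it was. Alternatives were DESeq2 1.42.0, scaling to library size, no filter, no fold threshold, limma 3.58.1 on log2(FPKM + 1), with and without a filter, and on log2(FPKM + 0.1), only the groups compared, the replicate block, the GC offset, both together, and leaving out each library. Direct comparisons of the fatty acids (PA against LA, PA+NTP against LA+NTP) were chosen once values were known. The scripts were tested on simulated data. A rank test of 2 libraries against 2 cannot go below an exact two-sided p of 0.333 and was not used. Deviations of same-numbered libraries from their group means correlated at -0.085 to 0.129, which did not show a pairing of replicates.

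The 10 genes, the pathway and marker lists and the tests were chosen with earlier results of these data known. Named genes were the 10, up to 5 called genes per list and comparison by absolute log2 fold change, Cyp7a1, Cyp8b1, Cyp27a1, Slc51b, Rxra and Hnf4a, and the 2 genes most like each called gene; some of them are not reported here. Shared sequence was counted in stretches of 31 bases of GENCODE M21 transcripts.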

Additional observations from a re-analysis of the deposited data

Results flagged for a closer look

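The direct comparison of both fatty acids, chosen once the values were known, is listed here for 2 genes because the direct test of the difference between the fatty acids passed. Against the shared Vehicle libraries, Abcb4 had no call with PA (-0.48) or LA (0.23), and with the GC trend removed both values were below 0 (-0.80 and -0.11), while Baat was at -0.64 with PA and 0.49 with LA (-0.82 and 0.29 with the trend removed), the latter without a call. Abcb4, the canalicular phospholipid flippase, was lower in PA than in LA by a log2 fold change of -0.71 ± 0.10 (adjusted p = 0.000561 by edgeR), with 33.6 and 38.5 FPKM against 57.2 and 59.5. Baat, the bile acid conjugating enzyme, was at -1.12 ± 0.20 (adjusted p = 0.00261), with 3.84 and 4.23 FPKM against 7.64 and 9.52. In the presence of NTP the differences were -0.89 ± 0.10 for Abcb4 and -1.23 ± 0.19 for Baat. In both comparisons 2 of 2 palmitate libraries lay below 2 of 2 linoleate libraries for both genes. The fatty acids were given at 200 µM and 12 µM, and fatty acid and concentration cannot be told apart.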

How the results depend on the processing

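Counts are of the 10 genes. With no fold threshold, PA against Vehicle had 1 gene higher and 5 lower, LA against Vehicle 1 lower, PA+NTP against PA 3 lower, LA+NTP against LA 2 higher and 2 lower, and PA against LA and PA+NTP against LA+NTP 1 higher each. By limma on log2(FPKM + 1), with and without the filter, PA against Vehicle had 1 lower and the gene called higher with LA and the genes called either way with NTP under PA or LA came to 0, and without the filter PA+NTP against Vehicle had 1 lower. By limma on log2(FPKM + 0.1), 0 were higher with LA and 0 lower in LA+NTP against LA. Scaling to library size left 0 higher with LA, and DESeq2 left 0 higher in LA+NTP against LA. Removing the GC trend, with or without the replicate block, left 0 higher with LA and 0 higher or lower with NTP under PA or LA.

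The replicate block alone left the counts within 1.5 times, with 3 lower for PA against Vehicle and 3 lower, where Slco1b2 was added, for PA+NTP against Vehicle and for PA+NTP against LA+NTP. The replicate numbers were not shown to pair the libraries.

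Leaving out each library in turn, the count lower ranged from 1 to 3 for PA against Vehicle, from 0 to 4 for PA+NTP against PA, from 0 to 1 for LA+NTP against LA, from 1 to 4 for PA+NTP against Vehicle, from 1 to 2 for PA against LA and from 2 to 4 for PA+NTP against LA+NTP. The count higher ranged from 0 to 1 for LA against Vehicle, from 0 to 2 for PA+NTP against PA and from 0 to 1 for LA+NTP against LA. The 4 lower without PA+NTP replicate 1 in PA+NTP against PA were Slco1b2, Slco1a1, Nr1h4 and Baat.

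Log2 fold changes turned in sign with the GC trend removed, without and with the replicate block, in PA against Vehicle for Slco1a1 (-0.421 and -0.349) and Slco1b2 (-0.355 and -0.359), in LA against Vehicle for Slco1a1 (-0.0743 and -0.0651), Abcc2 (-0.193 and -0.192), Abcc3 (0.0026 and 0.0022) and Abcb4 (-0.109 and -0.109), in PA+NTP against PA for Abcc3 (-0.0168 and -0.0184) and Abcb4 (0.0276 and 0.0179), in LA+NTP against LA for Slco1a1 (0.0974 and 0.135), Abcc2 (0.0317 and 0.0311), Abcc3 (-0.0195 and -0.0194), Abcb4 (0.298 and 0.297), Baat (0.101 and 0.116) and Nr2f6 (-0.194 and -0.193), in LA+NTP against Vehicle for Slco1a1 (0.0231 and 0.07), Slco1b2 (0.0553 and 0.023) and Abcc3 (-0.0168 and -0.0173). With 1 library left out, values that turned ranged from -0.381 to 0.634 for Slco1a1, -0.0972 to 0.547 for Slco1b2 and -0.283 to 0.0628 for Abcb11 in PA against Vehicle, from -0.0134 to 1.0006 for Slco1a1 and -0.142 to 0.124 for Abcb11 in LA against Vehicle, from -0.553 to 0.0096 for Abcb11 and -0.709 to 0.0795 for Baat in PA+NTP against PA, from -0.317 to 0.482 for Abcb11 and -0.304 to 0.0158 for Baat in LA+NTP against LA, from -1.0093 to 0.0688 for Slco1a1, -0.0074 to 0.023 for Abcc2 and -0.139 to 0.0536 for Abcc3 in PA+NTP against Vehicle, from -0.531 to 0.483 for Slco1a1, -0.38 to 0.237 for Slco1b2 and -0.331 to 0.471 for Abcb11 in LA+NTP against Vehicle, from -0.274 to 0.0733 for Abcb11 and -0.0639 to 0.0178 for Abcc3 in PA against LA, from -0.603 to 0.0951 for Slc10a1 and -0.161 to 0.0311 for Abcc3 in PA+NTP against LA+NTP. Over all alternatives, 2547 values kept direction and side of the threshold, 230 lost the threshold, 35 gained it and 58 turned. Of the 30 two-group fold changes that turned in any alternative, 1 had passed the threshold (Nr2f6). Of 210 values of the NTP effect under PA minus that under LA for the 10 genes, 36 turned and 0 were called. The cause was not tested.

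With 1 mismatch in place of 2, the direct repeat was in 1 gene in place of 2. In TMM-normalized CPM the ratio of the highest to the lowest group mean was 0.954 to 1.06 times that in FPKM for the 10 genes. Slco1a1, Abcb11, Nr0b2 and Slc10a1 rested on 23 to 300 expected counts per group.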
